A study of Mus musculus with 7 samples.

Results

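The cytosolic ribosomal protein genes of mouse haematopoietic stem cells, the bone marrow cells that renew the blood, were described in cells held for 48 h with a drug that slows DNA replication. The genes were the 88 rows of the expression table, of 52224 in all, whose symbol names a protein of the cytosolic ribosome and whose level reached an FPKM of 1 in at least 2 of the 7 libraries. FPKM counts sequenced fragments relative to transcript length and to the fragments mapped in the library, so levels of different genes are compared here per length. By symbol, 52 genes belong to the large subunit and 36 to the small subunit. The choice used names and a minimum level, not a difference between groups. Of 103 names that fit the pattern, 10 were set aside because they name kinases of Rps6 or a binding protein of Rps19, and 5 stayed under the level minimum.

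CD48-CD150+LSK cells, a gate that enriches stem cells, had been sorted from bone marrow of C57BL/6J mice, all wild-type. The groups were cells with gemcitabine at 0.5 µM (Gem, 2 libraries) cells with hydroxyurea at 100 µM (HU, 2 libraries) and controls with DMSO (3 libraries). Every group was cultured for 48 h. Gemcitabine resembles deoxycytidine and blocks chain growth once incorporated. Hydroxyurea lowers the supply of deoxynucleotides by blocking ribonucleotide reductase. The labels give neither the age of the mice nor whether libraries of a group came from separate animals or cultures, so p-values measure only how these libraries spread, and that spread may be technical.

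The ribosome makes all cellular protein, and each of its proteins is needed in about equal number, so the genes are known as a group that is transcribed at a high rate and kept in step. In mammals their mRNAs begin with a C followed by a run of pyrimidines, the terminal oligopyrimidine motif, through which the TOR kinase and Larp1 set their translation and stability. Blood formation is known to be sensitive to the dose of single ribosomal proteins: loss of a copy of RPS19 and of several other members causes Diamond-Blackfan anaemia in humans.

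The start sites of 9 members that the results below turn on are shown, since the pyrimidine run at the start is the feature these genes are known by. Each line gives 20 bases before and 20 bases from the RefSeq start on, in the direction of transcription (RefSeq, GRCm38.p6), with the longest pyrimidine run in capitals. The first 5 belong to members that were among the most lowered or are known for their control, and the last 4 to members of high level that were lowered least in HU.
Rps25, chr9:44407694-44407733, plus strand: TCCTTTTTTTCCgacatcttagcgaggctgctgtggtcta
Rpl7a, chr2:26910787-26910826, plus strand: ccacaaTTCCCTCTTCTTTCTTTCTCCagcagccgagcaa
Rpl22l1, chr3:28805488-28805527, plus strand: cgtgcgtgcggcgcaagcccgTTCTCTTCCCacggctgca
Rpl38, chr11:114668560-114668599, plus strand: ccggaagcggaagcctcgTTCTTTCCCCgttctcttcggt
Rps6, chr4:86857348-86857387, minus strand: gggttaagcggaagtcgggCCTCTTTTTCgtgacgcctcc
Rplp0, chr5:115559447-115559486, plus strand: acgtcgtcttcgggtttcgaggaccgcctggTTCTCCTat
Rpl23, chr11:97782420-97782459, minus strand: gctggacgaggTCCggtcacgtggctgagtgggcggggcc
Rpl4, chr9:64173367-64173406, plus strand: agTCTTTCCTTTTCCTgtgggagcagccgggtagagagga
Rpl5, chr5:107900508-107900547, plus strand: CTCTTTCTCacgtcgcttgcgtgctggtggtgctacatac

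Within these windows the longest run measured 21 bases at Rpl7a, 14 bases at Rpl4, 12 bases at Rps25, 10 bases each at Rpl22l1, Rpl38 and Rps6, 9 bases at Rpl5, 7 bases at Rplp0 and 3 bases at Rpl23. The runs of Rps25 and Rpl5 begin at the edge of the window, so their lengths are minimum values. The RefSeq start does not always fall on the first base of the marked run. At Rpl38 the run begins 2 bases before the start, with T, and the start falls on its first C. At Rpl22l1 the run begins 1 base after the start. RefSeq promoters matched 65 of the 88 members. A run of at least 6 pyrimidines that begins with C, within 25 bases of either side of a start and on the transcribed strand, was found for 48 of the 65 members, 73.8%, against 40.8% of the 27025 genes in the promoter table. The median longest run was 9 bases in the members and 5 bases in all genes.

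In the 300-base promoters, from 250 bases before to 50 after the start and searched on both strands, 12 members held CCGGAAGT, a core of sites for the ETS family (18.5%, against 4.31% of all genes). ATGGCG, a core of sites for the factor YY1, was found for 19 members (29.2%, against 10.2%). CTCTTTCC, which is itself a pyrimidine run and overlaps the start motif, was found for 10 members (15.4%, against 3.57%). TATAAA, the letters of the TATA box, was found for 8 members (12.3%, against 15.7%). CTTTTC was found for 18 members (27.7%, against 24.3%). A match of letters is a description of these windows and not a measure of binding.

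The 88 members lie on 19 chromosomes, with 14 on chromosome 7 and 4 on chromosome X (GENCODE M21, GRCm38, the assembly of mm10; 87 of the 88 were annotated there). The spans of 30 members hold 58 annotated small nucleolar RNAs, which guide changes to ribosomal RNA. Of the 50 of these RNAs with a row in the table, 20 were above 0 in any library and 1 was above 0 in all 7.

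The members fell into a large high group and a small low group. In 80 members the mean FPKM over the 7 libraries was at least 100, the lowest being Rpl12 with a mean of 148. In the other 8 the highest mean was 57.5, at Rpl7l1. Among all rows ranked by mean FPKM, 30 of the top 100 and 62 of the top 200 were members. Within a library the 80 high members spread over 18.0-fold to 26.7-fold, and the SD of their log2 FPKM was 1.01 in both Gem libraries, 0.99 and 1.04 in the HU libraries and 0.93 to 0.95 in the DMSO libraries.

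Among the highest members were Rps19, Rps27 and Rpl13, with means of 2948, 2671 and 2570 FPKM. The 8 low members were Rpl7l1, Rps27rt, Rps4l, Rpl37rt, Rps3a2, Rpl6l, Rpl32l and Rps23rg1. GENCODE M21 lists Rpl37rt, Rps4l, Rps3a2, Rpl6l and Rpl32l as processed pseudogenes, copies of an mRNA back in the genome, and does not list Rps23rg1. How the authors treated reads that match several places is not given in the sources used here, so reads of these copies and of their parents may be exchanged.

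The minimum level passed its lowest members narrowly. Rpl6l had 1.34 and 0.85 FPKM in Gem cells, 1.01 and 0.48 FPKM in HU cells, and 1.41, 1.99 and 1.19 FPKM in DMSO cells. Rpl32l was listed at 0 in both Gem libraries, at 2.0 and 0 FPKM in HU cells, and at 0.69, 1.83 and 0 FPKM in DMSO cells. Rps23rg1 had 0.09 and 0.53 FPKM in Gem cells and 1.96 and 1.11 FPKM in HU cells, against 0.06, 0 and 0 FPKM in DMSO cells, and so passed through its HU libraries. Just outside, Rpl3l, Rps3a3 and Rpl39l reached 1 FPKM in a single library each, at 1.42, 1.02 and 1.26 FPKM. Rpl10l and Rps12l1 were listed at 0 throughout.

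Several facts of the libraries stand beside the results. The FPKM of all rows summed to 703016 and 729258 in Gem libraries and 647760 and 651315 in HU libraries, against 818775 to 832979 in DMSO libraries. Of 1766 olfactory and vomeronasal receptor genes, most of which blood cells are not known to use, 955 and 1031 were above 0 in Gem cells and 1182 and 1204 in HU cells, against 373 to 400 in DMSO cells. The median log2 fold change of all 13865 genes tested was −0.25 for Gem and −0.30 for HU against DMSO. After trimmed-mean scaling, which sets the bulk of the genes level between libraries, it was 0.011 and 0.019, and changes after that scaling are called scaled below. Of 12 stem cell markers, all with a row, Fgd5 alone stayed under 1 FPKM in every library. Mecom, at 0.18 to 1.71 FPKM, and Slamf1, at 0.41 to 1.25 FPKM, lay near the level minimum. Cd34 alone had 98.3 to 128 FPKM. The 12 summed to 258 and 240 FPKM in Gem cells and 216 and 225.4 FPKM in HU cells. In DMSO cells the sum was 307 to 312 FPKM. Transcripts of the granulocyte and monocyte lineage were abundant in every library. The 12 markers summed to 49130 and 47651 FPKM in Gem cells and 44389 and 47727 FPKM in HU cells. In DMSO cells they summed to 38548 to 43159 FPKM. Lyz2 made up most of each sum. It had 34347 and 35554 FPKM in Gem cells, 32469 and 36422 FPKM in HU cells, and 21718 to 30761 FPKM in DMSO cells. The median log2 fold change of the 12 was −0.32 in Gem and −0.53 in HU as deposited, and −0.02 and −0.16 scaled. In bulk RNA, fewer cells of a type and less RNA per cell cannot be told apart.

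DMSO replicate 3 stood apart from the other DMSO libraries for these genes. It was the lowest DMSO library in 84 of the 88 members, where it was the lowest for 46.1% of all genes tested. DMSO libraries also differed in markers of mast cells and basophils, whose 6 genes summed to 609, 1358 and 283 FPKM in DMSO replicates 1, 2 and 3, with 403 and 220 FPKM in Gem cells and 205 and 200 FPKM in HU cells. None of the 6 was at 0 in every library. The sum of 8 erythroid markers was 33.2 and 26.7 FPKM in Gem cells and 35.0 and 34.9 FPKM in HU cells, against 53.2 to 99.2 FPKM in DMSO cells, and that of 6 megakaryocyte and platelet markers was 1801 and 1705 FPKM in Gem cells and 1359 and 1556 FPKM in HU cells, against 1738 to 2815 FPKM in DMSO cells. Of the lymphoid markers Cd3g, Cd79a and Ms4a1 stayed under 1 FPKM in every library, as did Col1a1, Col3a1 and Cdh5 of the stromal and endothelial markers. Other genes of these lists did not: Nkg7, a lymphoid marker, had 25.8 to 78.1 FPKM over the libraries. The 7 lymphoid markers summed to 35.7 to 88.1 FPKM, and the 6 stromal and endothelial markers to 22.4 to 38.0 FPKM. The part of these markers in the results was not tested.

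The members together took 10.5% and 9.85% of all FPKM in Gem cells and 8.69% and 7.91% in HU cells, against 12.1%, 13.1% and 10.3% in DMSO cells. The HU libraries lay under every DMSO library. The Gem libraries lay on both sides of DMSO replicate 3 and under the other DMSO libraries. As summed FPKM, the members reached 76679 and 69282 in Gem cells and 56302 and 51516 in HU cells, against 100809, 107053 and 84711 in DMSO cells, so that on this scale no library of either drug overlapped DMSO.

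**Figure D1:**
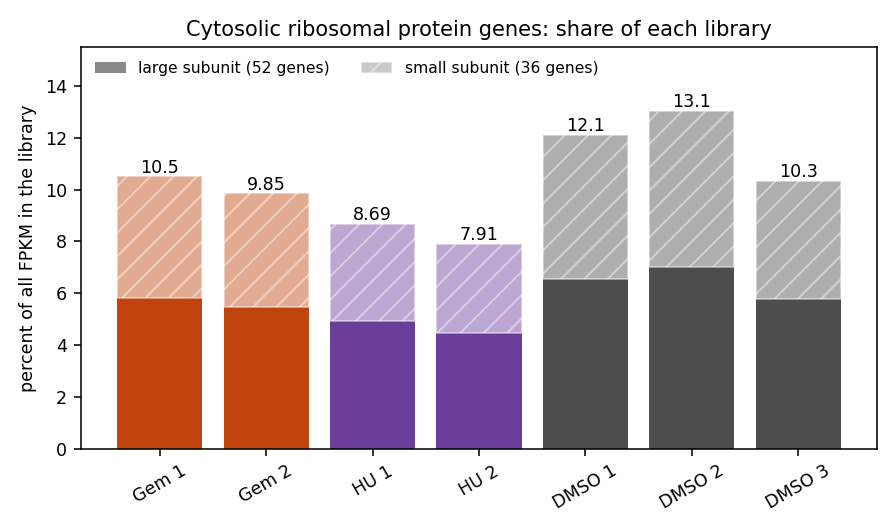
Share of all FPKM (percent) taken by the 52 large subunit genes (solid) and the 36 small subunit genes (hatched) in each library, with the total above each bar. The HU libraries, at 8.69% and 7.91%, are the lowest, and the Gem libraries, at 10.5% and 9.85%, lie beside DMSO replicate 3 at 10.3%.

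The sums of large and small subunit genes were both lowest in HU cells, and their ratio was highest there. The summed FPKM of the large subunit was 1.23 and 1.25 times that of the small subunit in Gem cells and 1.302 and 1.301 in the HU libraries, against 1.18, 1.16 and 1.26 in DMSO cells. DMSO replicate 3 lay above the Gem libraries in this ratio and below the HU libraries. Relative to the median of all genes tested, the median member lay under the DMSO mean, at −0.351 and −0.412 (log2) in Gem replicates 1 and 2, and at −0.666 and −0.850 in HU replicates 1 and 2. The DMSO libraries lay at 0.022, 0.129 and −0.151 around their mean.

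In gemcitabine the members fell with much of the transcriptome, and somewhat further. Of the 88, 46 were called lower and 0 higher at an adjusted p below 0.05 (limma), where 23.2% of all genes tested were called lower and 1.5% higher. The median log2 fold change of the members was −0.48, against −0.25 over all genes tested. The large subunit had 29 of 52 genes lower with a median of −0.49, and the small subunit 17 of 36 with a median of −0.47. In 70 of the 88 both Gem libraries lay under every DMSO library, where this held for 50.4% of genes tested, and in 1 both lay above, where 5.94% of genes tested did. After trimmed-mean scaling 2 members remained lower, Rpl29 among them, against 0.469% of genes tested lower and 0.483% higher, and the median was −0.17. With a correction for the level and length of each gene, 0 of 87 members were called, where 0.171% of genes tested were lower and 0.306% higher. The count of 46 rested on single libraries: it was 0 without Gem replicate 2, 16 without Gem replicate 1, 18 without DMSO replicate 1, 26 without DMSO replicate 2 and 68 without DMSO replicate 3.

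In hydroxyurea the fall was larger and nearly general. Of the 88 members, 84 were called lower and 1, Rps23rg1, higher, where 35.5% of all genes tested were called lower and 4.46% higher. Rps23rg1 passed the level minimum only through its HU libraries, so its call is not read as a result. All 80 members with a mean of at least 100 FPKM were among the lower. The median log2 fold change was −0.91, against −0.30 over all genes tested, with 49 of 52 large subunit genes lower (median −0.89) and 35 of 36 small subunit genes (median −0.93). In 85 of the 88 both HU libraries lay under every DMSO library, against 53.9% of genes tested, and in 1 both lay above, against 8.24%. After trimmed-mean scaling 53 members were lower and 1 higher, where 5.27% of genes tested were lower and 4.75% higher, and the median was −0.55. With the level and length correction 16 of 87 members were lower and 0 higher, where 1.07% of genes tested were lower and 0.991% higher. Leaving out each library in turn gave 64 to 85 called members.

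The fall in hydroxyurea held under every scaling tried for a smaller set. As deposited and under 5 other scalings, 15 members were called lower in HU against DMSO each time. They included Rps25, Rps24, Rps13, Rps15, Rps27l and Rps3a2 of the small subunit and Rpl7a, Rpl22, Rpl22l1, Rpl23a, Rpl24, Rpl29, Rpl35a and Rpl38 of the large subunit, a set read from the results and so given as a description. In Gem against DMSO 0 members were called under every scaling. Of the members named below, Rps6, Rps21, Rps24, Rps25, Rpl11, Rpl22, Rpl22l1, Rpl24, Rpl34 and Rplp1 were called lower in Gem only as deposited, 1 of the 6 scalings.

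**Figure D2:**
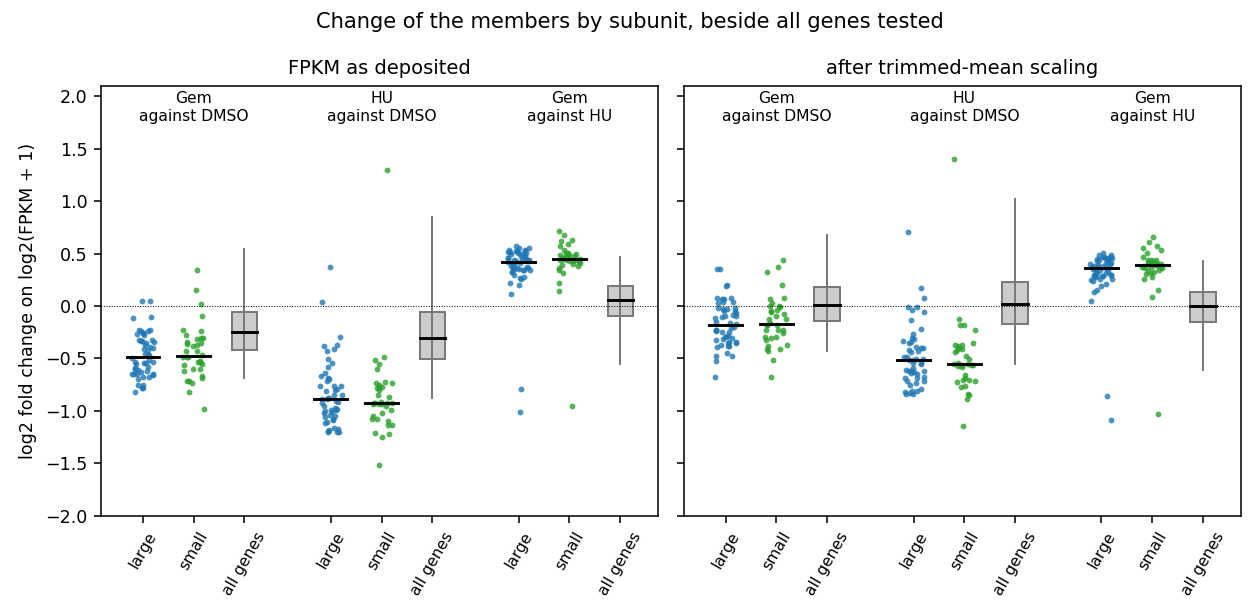
Log2 fold change on the log2(FPKM + 1) scale of each large subunit gene (blue points) and small subunit gene (green points) for both drugs against DMSO and for Gem against HU, as deposited (left) and after trimmed-mean scaling (right), with the median as a black bar. Grey boxes give the quartiles and grey lines the 5th to 95th percentiles of all 13865 genes tested. The members' medians of −0.48 in Gem and −0.91 in HU as deposited lie under the median of all genes, and both lie closer to 0 after scaling, at −0.17 and −0.55.

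The drugs were also compared with each other, each at its own dose, so the values stand side by side. Between Gem and HU 0 members were called, where 0.0793% of all genes tested were lower in Gem and 0.0216% higher. The lowest adjusted p was 0.152 (limma), and 69 members had an unadjusted p under 0.05, as had 1484 of the 13865 genes tested. After trimmed-mean scaling the count was again 0, where 0.108% of genes tested were lower and 0.0216% higher, and likewise with the level and length correction, where 0.00745% were lower and 0.0149% higher. The median log2 fold change of Gem against HU was 0.44 over the members and 0.056 over all genes tested. In 82 of the 88 members, the 80 high members included, both Gem libraries lay above both HU libraries, where this held for 27.7% of genes tested, and in 2 both lay below, against 13.8%. Rps28, a small subunit protein near the exit of the mRNA channel, had 2078 and 1975 FPKM in Gem cells and 1215 and 1244 FPKM in HU cells. Its log2 fold change of Gem against HU was 0.72 (SE 0.12, adjusted p = 0.152).

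Rps25, a small subunit protein that several viral entry sites for the ribosome require, was the most lowered member in both drugs (chromosome 9, 44407139 to 44410427, plus strand). It had 1026 and 879.9 FPKM in Gem cells and 691 and 621 FPKM in HU cells, against 2016, 2315 and 1414 FPKM in DMSO cells. No drug library overlapped DMSO, although the DMSO libraries themselves spread widely. The log2 fold change was −0.98 in Gem (SE 0.20, adjusted p = 0.0146; −0.68 and adjusted p = 0.134 scaled) and −1.52 in HU (SE 0.20, adjusted p = 0.0019; −1.15 and adjusted p = 0.0147 scaled). The Gem call of Rps25 was lost without DMSO replicate 1 and without either Gem library. Its start, shown above, carries a run of at least 12 pyrimidines upstream of the RefSeq start.

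Rpl29, a large subunit protein (chromosome 9, 106429454 to 106431568, plus strand), had 346 and 316 FPKM in Gem cells and 291 and 278 FPKM in HU cells, against 592, 591 and 527 FPKM in DMSO cells. No drug library of Rpl29 overlapped DMSO, whose libraries lay close together. Its log2 fold change was −0.78 in Gem (SE 0.084, adjusted p = 0.00563; −0.48 and adjusted p = 0.0409 scaled) and −0.9999 in HU (adjusted p = 0.00102), and its difference between Gem and HU was 0.22 (adjusted p = 0.459).

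Other members with the largest falls were found in both subunits. Rpl34, a large subunit protein, had 971 and 759 FPKM in Gem cells and 659.8 and 663 FPKM in HU cells, against 1638, 1806 and 1189 FPKM in DMSO cells, a log2 fold change of −0.82 in Gem (adjusted p = 0.0196) and −1.20 in HU (adjusted p = 0.00309). Rpl7a, a large subunit protein with 3 small nucleolar RNAs within its gene (chromosome 2, 26910764 to 26913318, plus strand), had 434 and 401 FPKM in Gem cells and 323 and 298 FPKM in HU cells, against 748, 769.5 and 642 FPKM in DMSO cells. Its log2 fold change was −0.78 in Gem (adjusted p = 0.00637) and −1.21 in HU (adjusted p = 0.00102). Rpl34 and Rpl7a did not overlap between either drug and DMSO. Rps21, a small subunit protein, had 245 and 231 FPKM in Gem cells and 199 and 141 FPKM in HU cells, against 399, 474 and 315 FPKM in DMSO cells, and its log2 fold change was −0.71 in Gem (adjusted p = 0.0351) and −1.22 in HU (adjusted p = 0.00342).

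**Figure D3:**
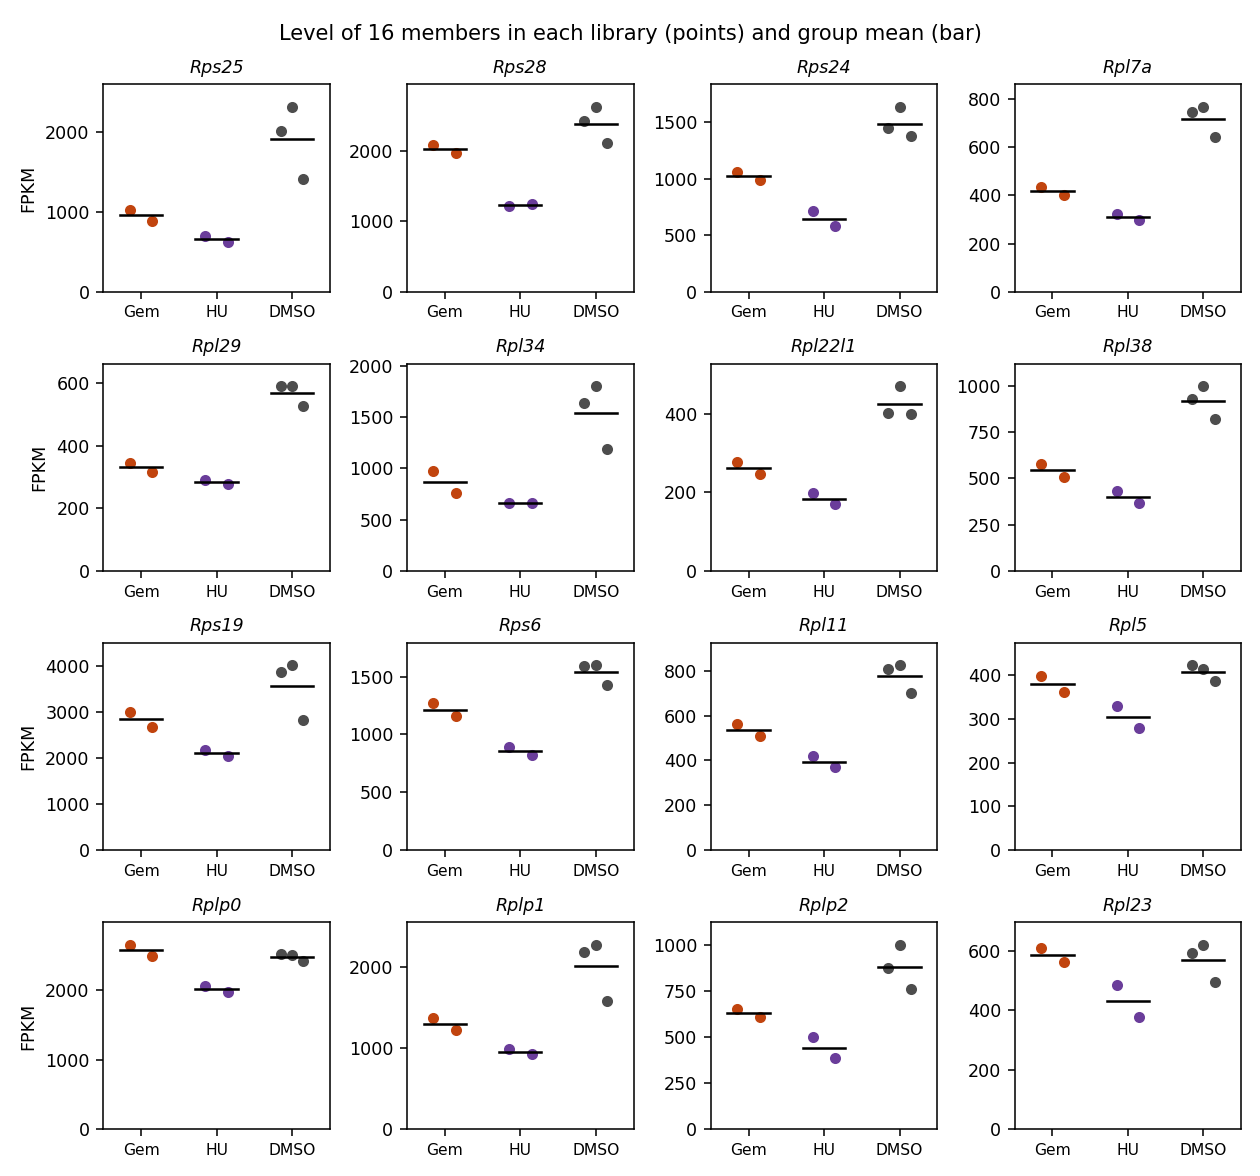
FPKM of 16 members in each library (points; Gem, HU and DMSO from left to right) with the group mean as a black bar; each vertical axis starts at 0. Rps25, Rpl29 and Rpl7a lie lower in every drug library than in every DMSO library, whereas Rplp0 in Gem, at 2658 and 2490 FPKM, overlaps DMSO at 2422 to 2518 FPKM.

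Some members are known from anaemia or from development. Rps19, the gene most often mutated in Diamond-Blackfan anaemia, had 3013 and 2676 FPKM in Gem cells and 2179 and 2053 FPKM in HU cells, against 3865, 4021 and 2826 FPKM in DMSO cells. The Gem libraries of Rps19 overlapped DMSO (log2 fold change −0.31, adjusted p = 0.194), and the HU libraries did not (−0.74, adjusted p = 0.0108; adjusted p = 0.173 scaled). Rps24, another gene of that anaemia, had 1064 and 991 FPKM in Gem cells and 711 and 579 FPKM in HU cells, against 1449, 1639 and 1378 FPKM in DMSO cells. Rps24 fell in both drugs, with −0.53 in Gem (adjusted p = 0.0192) and −1.21 in HU (adjusted p = 0.00102), and its difference between Gem and HU was 0.68 (adjusted p = 0.221). Rps14, whose lost copy marks the 5q- syndrome in humans, had 1417 and 1360 FPKM in Gem cells and 1060 and 949.8 FPKM in HU cells, against 2067, 2204 and 1549 FPKM in DMSO cells. Rps14 was lower in HU (−0.93, adjusted p = 0.0038; adjusted p = 0.0495 scaled), and in Gem its value was −0.47 with an adjusted p of 0.0615.

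Rps26, also a gene of that anaemia and the protein that the chaperone Tsr2 delivers, had 944 and 844 FPKM in Gem cells and 702 and 597 FPKM in HU cells, against 1147, 1271 and 865 FPKM in DMSO cells. Its Gem libraries lay on both sides of DMSO replicate 3 (−0.28, adjusted p = 0.256), and it was lower in HU (−0.74, adjusted p = 0.0117; adjusted p = 0.194 scaled). Rpl38, whose loss in mice alters the translation of Hox mRNAs, had 579 and 507 FPKM in Gem cells and 432 and 368 FPKM in HU cells, against 929, 998 and 819 FPKM in DMSO cells. Rpl38 fell, with −0.75 in Gem (adjusted p = 0.00837) and −1.19 in HU (adjusted p = 0.00102; adjusted p = 0.0103 scaled). Rpl24, the gene of the belly spot and tail mutation of mice, had 364 and 346 FPKM in Gem cells and 275 and 236 FPKM in HU cells, against 555, 606 and 495 FPKM in DMSO cells, with changes of −0.63 in Gem (adjusted p = 0.00954) and −1.11 in HU (adjusted p = 0.00102). Neither Rpl38 nor Rpl24 overlapped between the drugs and DMSO.

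Rps6, Rpl11 and Rpl5 link the ribosome to signalling. Rps6, the substrate of the S6 kinases, had 1268 and 1160 FPKM in Gem cells and 889 and 819 FPKM in HU cells. In DMSO cells Rps6 had 1589, 1598 and 1427 FPKM. It was lower in Gem as deposited (limma, −0.34, adjusted p = 0.0353) but was called under no other scaling. In HU it was lower as well (−0.85, adjusted p = 0.00126). Rpl11 and Rpl5 bind the 5S ribosomal RNA and, when ribosome assembly is disturbed, the p53 regulator Mdm2. Rpl11 had 563 and 511 FPKM in Gem cells and 418 and 372 FPKM in HU cells, against 808, 824 and 701 FPKM in DMSO cells, so that no drug library overlapped DMSO. Rpl11 fell, with −0.53 in Gem (adjusted p = 0.0127) and −0.97 in HU (adjusted p = 0.0011). Rpl5 had 398 and 363 FPKM in Gem cells and 330.3 and 279 FPKM in HU cells, against 423, 414 and 388 FPKM in DMSO cells. The Gem libraries of Rpl5 overlapped DMSO (−0.10, adjusted p = 0.449), and its HU value was −0.42 (adjusted p = 0.0111; −0.06 and adjusted p = 0.753 scaled).

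Among the stalk proteins, which bring elongation factors to the ribosome, Rplp0 had the highest log2 fold change of the 80 high members in both drugs. Rplp0 forms the base of the stalk (chromosome 5, 115559467 to 115563727, plus strand) and had 2658 and 2490 FPKM in Gem cells and 2067 and 1977 FPKM in HU cells, against 2518, 2506 and 2422 FPKM in DMSO cells. In Gem Rplp0 was above DMSO in replicate 1 and within the DMSO range in replicate 2 (0.05, SE 0.085, adjusted p = 0.684), and in HU it was lower (−0.30, SE 0.085, adjusted p = 0.0293) but not scaled (0.07, adjusted p = 0.623). Rplp1, which sits on Rplp0 together with Rplp2, had 1370 and 1223 FPKM in Gem cells and 992 and 924 FPKM in HU cells, against 2179, 2274 and 1580 FPKM in DMSO cells. Rplp1 fell, with −0.62 in Gem (adjusted p = 0.0311) and −1.05 in HU (adjusted p = 0.00303). Rplp2 had 655 and 609 FPKM in Gem cells and 500.4 and 388 FPKM in HU cells, against 876, 1004 and 764 FPKM in DMSO cells, with −0.47 in Gem (adjusted p = 0.0519) and −0.99 in HU (adjusted p = 0.00261). So both partners had drug libraries under every DMSO library, while Rplp0 did not in Gem.

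Rpl10, which joins the large subunit late in the cytoplasm, had 2149 and 2022 FPKM in Gem cells and 1576 and 1536 FPKM in HU cells, against 2611, 2628 and 2276 FPKM in DMSO cells, and fell, with −0.68 in HU (adjusted p = 0.00244; adjusted p = 0.0638 scaled). Rpsa, a small subunit protein also described as a laminin receptor, had 548 and 496 FPKM in Gem cells and 444 and 380.3 FPKM in HU cells, against 767, 774 and 586 FPKM in DMSO cells, and fell, with −0.77 in HU (adjusted p = 0.00533; adjusted p = 0.0983 scaled). In both genes the HU libraries were the lowest and the Gem libraries lay between. Neither gene was called lower in Gem under any of the 6 scalings.

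Several members have a paralogue, and the ratio within a pair is free of any factor that scales a whole library. A difference between libraries that depends on level would not cancel where the levels of a pair lie far apart. Its part in these ratios was not tested. Rpl22l1 was expressed above Rpl22, which is needed for T cell development in mice: its FPKM was 179% and 161% of that of Rpl22 in Gem cells and 169% in both HU libraries, against 159%, 172% and 183% in DMSO cells. Both fell in HU, Rpl22 with −1.18 (adjusted p = 0.00102) and Rpl22l1 with −1.20 (adjusted p = 0.00102), and in Gem, with −0.68 and −0.69 (adjusted p = 0.00898 and 0.0086). Rps27l, a paralogue of Rps27 known as a target of p53, had 309 and 255 FPKM in Gem cells and 215 and 211 FPKM in HU cells, against 479.9, 495 and 432 FPKM in DMSO cells. Rps27l fell in both drugs, with −0.74 in Gem (adjusted p = 0.00695) and −1.13 in HU (adjusted p = 0.00102), and it stood at 11.3% and 11.004% of Rps27 in Gem cells and 11.3% and 12.4% in HU cells, against 13.5%, 12.4% and 17.3% in DMSO cells. Rps27 itself was lower in HU (−0.87, adjusted p = 0.0121; adjusted p = 0.140 scaled) and had −0.38 in Gem (adjusted p = 0.190).

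Rpl36al stood at 85.6% and 90.2% of Rpl36a in Gem cells and 97.1% and 96.1% in HU cells, against 84.0%, 78.1% and 96.1% in DMSO cells. These ranges overlapped. Rpl7l1, a relative of Rpl7, had 53.2 and 54.8 FPKM in Gem cells and 54.4 and 45.7 FPKM in HU cells, against 64.9, 66.5 and 62.7 FPKM in DMSO cells. It stood at 9.04% and 9.96% of Rpl7 in Gem cells and 11.9% and 10.9% in HU cells, against 8.46%, 8.43% and 9.20% in DMSO cells, so the HU libraries lay above all others in this ratio. Rps4l stood at 1.26% and 1.31% of Rps4x in Gem cells and 1.76% and 1.37% in HU cells, against 1.11%, 1.21% and 1.31% in DMSO cells. Rps27rt stood at 1.42% and 1.45% of Rps27 in Gem cells and 1.41% and 1.15% in HU cells, against 0.922%, 0.933% and 1.122% in DMSO cells. Rpl37rt stood at 1.92% and 1.13% of Rpl37 in Gem cells and 4.83% and 4.54% in HU cells, against 1.91%, 2.16% and 1.35% in DMSO cells. The HU libraries were thus apart for Rpl37rt. Rpl39 and Rpl3 had relatives under the level minimum: Rpl39l did not exceed 0.554% of Rpl39 and Rpl3l did not exceed 0.185% of Rpl3 in any library.

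To see which members departed from the common fall, libraries were also rescaled so that the median high member was level, a comparison added after the data were seen. In Gem 0 members departed from the median member (limma, adjusted over all genes; 14 at an unadjusted p under 0.05, as were 1821 of all 13865), where 0.0361% of all genes tested were lower and 0.31% higher. Between Gem and HU 0 did, where 0.267% were lower and 0.0144% higher. In HU 12 members did, 1 lower and 11 higher, where 0.498% of all genes tested were lower and 44.1% higher on this scale. At an unadjusted p under 0.05 (limma) there were 21 members in HU, as were 7968 of all 13865. The adjustment runs over all genes, so the counts of 0 and 12 are not read as a difference between the drugs. The lower member was Rps25 (−0.59, SE 0.13, adjusted p = 0.0133). The higher ones included Rplp0 (0.63, adjusted p = 0.0107), Rpl4, a protein that lines the exit tunnel (0.55, adjusted p = 0.0229), Rpl23, a protein at the face between the subunits (0.52, adjusted p = 0.0123), and Rpl5 (0.50, adjusted p = 0.0158). They also included Rpl13, Rps27a, Rpl7l1, Rps27rt and Rpl37rt, and Rps23rg1, which is not read as a result for the reason given above. Of the 11, 7 were among the 80 high members and 4 among the 8 low members. The share of the low members was near the 44.1% of all genes, so their calls are not read as departures. The number in HU was 3 without DMSO replicate 1, 6 without DMSO replicate 2, 19 without DMSO replicate 3, 7 without HU replicate 1 and 2 without HU replicate 2.

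Some of these members are given by library. Relative to the median member and to its own DMSO mean, Rplp0 lay at 0.56 and 0.55 in Gem cells and 0.59 and 0.74 in HU cells (log2), against −0.02, −0.07 and 0.09 in DMSO cells. Rpl23 lay at 0.56 and 0.53 in Gem cells and 0.62 and 0.48 in HU cells, against 0.02, 0.04 and −0.07 in DMSO cells. Rps25 lay at −0.41 and −0.55 in Gem cells and −0.59 and −0.52 in HU cells, against 0.06, 0.22 and −0.28 in DMSO cells. Rplp0 and Rpl23 were apart from their DMSO values in all 4 drug libraries, and Rps25 also lay under DMSO replicate 3, its lowest control. Such a separation was not particular to these members, which were picked from the same values. Rpl14 lay at 0.27 to 0.34 in the drug libraries, against −0.04 to 0.03 in DMSO cells. Rpl38 lay at −0.30 to −0.20, against −0.03 to 0.04. Gem and HU share their DMSO libraries, so the likeness of the drugs is given as values only.

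**Figure D4:**
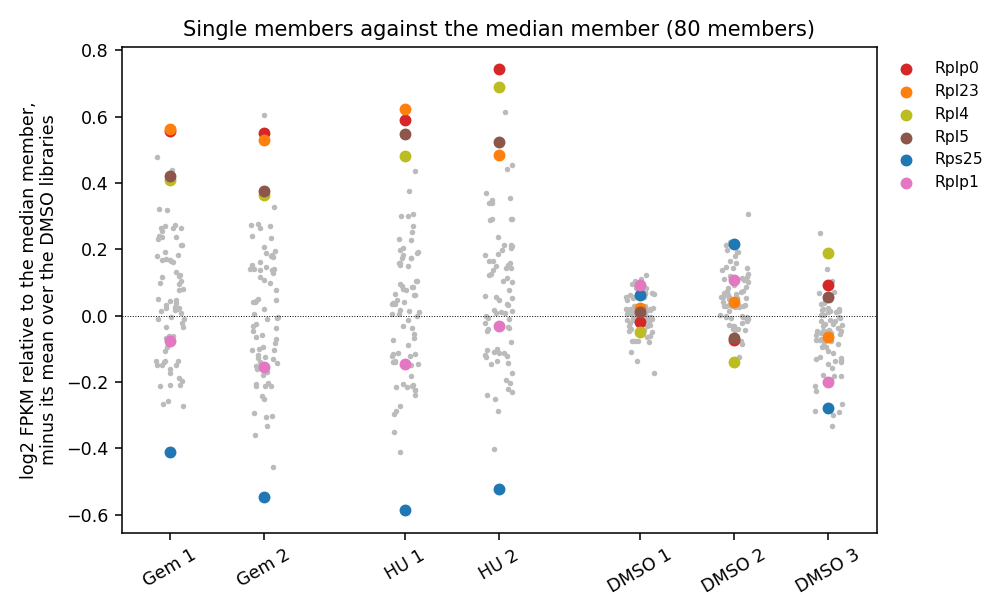
Log2 FPKM of each of the 80 high members relative to the median member of the library, minus its mean over the DMSO libraries, with 6 members in colour and the others in grey. Rplp0 lies at 0.55 to 0.74 in the 4 drug libraries and Rps25 at −0.41 to −0.59.

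As levels, Rpl23 had 611 and 563 FPKM in Gem cells and 485 and 378 FPKM in HU cells, against 594, 622 and 497 FPKM in DMSO cells. Its Gem value was 0.05 (adjusted p = 0.834), and its HU value of −0.41 (adjusted p = 0.0475) became −0.04 when scaled (adjusted p = 0.888). Rps20, a small subunit protein, had 454 and 480.1 FPKM in Gem cells and 345 and 268 FPKM in HU cells, against 458, 539.7 and 394 FPKM in DMSO cells. Rps20 overlapped DMSO in Gem (0.02, adjusted p = 0.935) and was lower in HU (−0.60, adjusted p = 0.0185; adjusted p = 0.403 scaled).

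Length, level and features of the gene were set beside the size of the fall. Over the 80 high members, the log2 fold change of HU against DMSO had a Spearman rho of 0.21 and a Pearson r of 0.20 with exonic length, and 0.33 and 0.32 with mean level. In Gem against DMSO the values were 0.16 and 0.18 with length and 0.37 and 0.35 with level. These are across genes that share the same libraries, level and fold change are computed from the same values, and a mean level of at least 100 FPKM chose the 80. The median change of the 45 high members with the pyrimidine run was −0.48 in Gem and −0.91 in HU, beside −0.49 and −0.95 for the 15 with a promoter but no such run. The 30 high members that hold a small nucleolar RNA had medians of −0.39 in Gem and −0.79 in HU, beside −0.53 and −0.96 for the 50 without.

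Rows for pseudogenes of the members offered a further readout outside the 88. The table held 322 such rows, of which 104 could be tested, and they summed to 0.684% and 0.662% of the members' FPKM in Gem cells and 0.798% and 1.02% in HU cells, against 0.824%, 0.807% and 0.857% in DMSO cells. Of the 104, 7 were called lower and 3 higher in Gem against DMSO with a median of −0.05, and 18 lower and 21 higher in HU against DMSO with a median of −0.03. Over all genes tested, 23.2% were called lower and 1.5% higher in Gem, and 35.5% lower and 4.46% higher in HU.

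Genes that act with the members were read from lists, beside all genes tested, of which 23.2% were lower in Gem and 35.5% in HU as deposited, and 0.469% and 5.27% after scaling. Of 3 genes whose products are made as a fusion with a ribosomal protein or bind the ribosome, 3 were lower in HU, also when scaled, and 2 were lower in Gem. They include Fau, which encodes a small subunit protein fused to a ubiquitin-like protein, and Rack1, a protein on the small subunit head. Rack1 had −0.46 in Gem (adjusted p = 0.0122) and −0.80 in HU (adjusted p = 0.00124). Fau had 1687 and 1496 FPKM in Gem cells and 1169.7 and 1153 FPKM in HU cells, against 2289, 2476 and 1820 FPKM in DMSO cells, with −0.45 in Gem (adjusted p = 0.0502) and −0.91 in HU (adjusted p = 0.00303).

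Of 16 further genes with terminal oligopyrimidine mRNAs, 13 were lower in Gem and 15 in HU with medians of −0.41 and −0.71, and after scaling 0 and 10 were lower. Npm1, a nucleolar protein, had −0.61 in Gem (adjusted p = 0.00695) and −0.92 in HU (adjusted p = 0.00102), and Eef1b2, an elongation factor, −0.54 (adjusted p = 0.0255) and −1.06 (adjusted p = 0.00164). Eef1a1, the elongation factor that delivers transfer RNA, had 6098 and 5747 FPKM in Gem cells and 4664 and 4491 FPKM in HU cells, against 5244, 4993 and 5616 FPKM in DMSO cells, and did not pass in Gem (0.17, adjusted p = 0.285) or HU (−0.21, adjusted p = 0.163). Eef1a1 was thus above every DMSO library in Gem and below every DMSO library in HU without passing the test.

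Of 18 chaperones and assembly factors of single ribosomal proteins, 14 were lower in Gem and 17 in HU, with medians of −0.45 and −0.58, and 0 and 3 were lower when scaled. Bccip, a chaperone of Rpl23, had −0.66 in Gem (adjusted p = 0.00575) and −0.85 in HU (adjusted p = 0.00102; adjusted p = 0.0149 scaled). Rrs1 and Rpf2, which bring Rpl5 and Rpl11 into the large subunit, had −0.40 and −0.54 in Gem (adjusted p = 0.0273 and 0.0183) and −0.38 and −0.77 in HU (adjusted p = 0.0197 and 0.00303), and neither passed when scaled. Of 18 genes of TOR control of these mRNAs, 6 were lower in Gem and 7 in HU, and 0 were when scaled, so the share in HU was near that of all genes. Myc, a transcription factor that drives ribosome production, had 75.6 and 63.8 FPKM in Gem cells and 67.8 and 59.99 FPKM in HU cells, against 106, 88.9 and 92.9 FPKM in DMSO cells (−0.46, adjusted p = 0.0257, and −0.58, adjusted p = 0.00674). Larp1 had −0.32 in Gem (adjusted p = 0.0924) and −0.40 in HU (adjusted p = 0.0347).

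Of 12 genes of ribosome rescue and quality control, 1 was lower in Gem, and in HU 2 were lower and 1 higher, and when scaled 0 were called in Gem and 1, higher, in HU. The shares called lower were under those of all genes. The higher gene was Gcn1, a sensor of collided ribosomes, with 12.3 and 11.9 FPKM in Gem cells and 19.1 and 16.3 FPKM in HU cells, against 12.1, 12.6 and 13.8 FPKM in DMSO cells. Its log2 fold change in HU was 0.44 (adjusted p = 0.0164; 0.78 and adjusted p = 0.0117 scaled), and in Gem −0.08 (adjusted p = 0.636). Both HU libraries of Gcn1 lay above all others.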

How the data were processed

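Per the labels' protocols, RNA of sorted cells was taken up with a miRNeasy kit, amplified by a Geo-seq method and made into libraries with a TruePrep kit. The authors deposited FPKM for 52224 rows and 7 libraries, used here as deposited. Bowtie 0.12.9, HTSeq, Cufflinks 2.1.1, DESeq2 and mm10 appear in the submitters' processing notes, with no roles. The tool behind the FPKM is not given in the sources used here, nor is the handling of strand, so overlapping and antisense genes are not separated. The step of 1 read could not be found (at best 29.9% to 38.0% of low values lay within 0.1 of whole steps), so depth is unknown.

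Values were tested as log2(FPKM + 1), which understates changes of low genes, with limma 3.58.1 (R 4.3.3): 3 groups in a common fit, a mean-variance trend, two-sided tests, and Benjamini-Hochberg adjustment over the 13865 genes that reached 1 FPKM in 2 or more libraries. The fit was run on simulated data with independent noise for each gene and no shift of the bulk of the genes. That check does not show how the fit behaves under the shift seen here. Trimmed-mean scaling dropped 30% of ratios and 5% of levels at each end. The level and length correction used a loess with a span of 0.3. Members and lists were chosen with earlier results of these data known. Named genes were those with the largest called changes, the highest and lowest levels, those at the level minimum, those passing after scaling, and members with a known role or paralogue. Some single genes are not reported here.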

Additional observations from a re-analysis of the deposited data

How the results depend on the processing

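The fall of the members in hydroxyurea kept its direction under every alternative run, and its size and count depended on the scaling. In gemcitabine the count of called members depended on the scaling, the filter and single libraries. Causes were not tested. Depth is unknown, so the precision of low values is too. Of the single-gene values recomputed, 768 kept direction and call, 193 kept direction and lost the call, 12 gained it and 33 changed sign.

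In Gem against DMSO the 46 called members became 17 with no filter, 2 with trimmed-mean scaling, 5 with the same FPKM sum in every library, 27 with no trend, and 0 with cyclic loess, quantile normalization or the level and length correction. Leaving out each library gave 0 to 68. Trimmed-mean scaling without DMSO replicate 3, added after seeing the data, gave 11. The median relative to all genes, −0.23, became −0.48 with no filter and −0.097 with cyclic loess, and lay between −0.32 and −0.13 without single libraries. In HU against DMSO the 85 called became 54 with trimmed-mean scaling, 56 with the same sum, 16 with cyclic loess (15 lower and 1 higher), 18 with quantile normalization and 16 with the level and length correction, and 64 to 85 without single libraries. The relative median, −0.61, became −0.96 with no filter, −0.28 with cyclic loess, −0.30 with quantile normalization and −0.33 with the level and length correction, and lay between −0.69 and −0.49 without single libraries. In Gem against HU the count was 0 in every setting, and the relative median, 0.38, became 0.19 with cyclic loess, 0.20 with quantile normalization and 0.23 with the level and length correction, and lay between 0.29 and 0.47 without single libraries. The 12 members apart from the median member in HU became 2 to 19 without single libraries.

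Same-numbered libraries did not deviate together (r from −0.074 to 0.044), and the libraries were not paired in the main fit. This check cannot exclude that same-numbered libraries share an animal or culture, which the labels do not give. With a replicate block, which also drops DMSO replicate 3, 63 members were called in Gem, 84 in HU and 0 between the drugs, and with trimmed-mean scaling and the block 3 were called in Gem. Under the block Rpl23 and Rps20 in Gem changed sign to −0.051 and −0.091.

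Other changes of sign were these. In Gem, Rpl5 had 0.20 with trimmed-mean scaling, 0.099 with the same sum, 0.30 with cyclic loess, 0.33 with quantile normalization and 0.25 with the level and length correction. Rps26 in Gem had 0.028, 0.11, 0.098 and 0.073 under those settings other than the same sum. With cyclic loess Rps19 and Rps6 in Gem had 0.032 and 0.035. Without Gem replicate 1, Rpl23 had −0.013, and without Gem replicate 2, Rps20 had −0.020. Over all such omissions Rps20 in Gem lay between −0.091 and 0.136. In HU, Rplp0 had 0.073 with trimmed-mean scaling, 0.047 with the same sum, 0.38 with cyclic loess, 0.23 with quantile normalization and 0.19 with the level and length correction. With cyclic loess Rplp0 was thus called higher (limma, adjusted p = 0.048), although it was called lower as deposited. With cyclic loess, quantile normalization and the level and length correction, in that order, HU values were 0.19, 0.24 and 0.085 for Rpl5, 0.22, 0.25 and 0.18 for Rpl23, and 0.12, 0.11 and 0.097 for Rpl7l1. Rps20 in HU had 0.019 with cyclic loess and 0.056 with quantile normalization.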
